A study of Homo sapiens with 6 samples.

Results

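Kinesins are motor proteins that use ATP to walk along microtubules or to take them apart. The family splits by task: some members build the spindle, move chromosomes and cut the daughter cells apart, and are made mostly in dividing cells, while others carry vesicles, organelles and ciliary cargo in cells of any cycle stage. In a colorectal cancer line that divides in culture, both kinds are made side by side. The kinesin genes examined here were all genes whose symbol in the array annotation reads KIF followed by a number, with or without closing letters, plus KIFC1, and each needed a probe set annotated to that symbol alone. This gave 39 kinesin genes of 19775 genes measured. Of these, 12 form the mitotic set (KIF2C, KIF4A, KIF11, KIF14, KIF15, KIF18A, KIF18B, KIF20A, KIF20B, KIF22, KIF23 and KIFC1) and 27 the remaining set.

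The cells were SW480, an established human colorectal adenocarcinoma line, transfected and labelled as overexpressing CPEB3, an RNA-binding protein that regulates the translation of bound mRNAs (3 arrays), or transfected with a negative control, NC (3 arrays). Both groups were kept in the same serum-containing medium with penicillin and streptomycin. The vector, the time after transfection and whether a group is a selected clone are not given in the labels, which call the replicates biological but name no culture or day, so every p-value rests on the scatter among these samples alone, which may be partly technical. Affymetrix HG-U133 Plus 2.0 arrays read the total RNA, and all levels below are log2 intensities of a probe set.

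The CPEB3 transcript did not follow the labels. At its probe set with the widest difference it was 2.39, 2.08 and 2.47 in the CPEB3-labelled arrays, against 3.99, 3.59 and 3.68 in the NC-labelled arrays, and at its brightest probe set the means were 5.37 and 5.32 (adjusted p = 0.695 over all probe sets). Both of its other probe sets, dim like the first, were also lower, with differences of -0.35 and -0.25 (adjusted p = 0.00877 and 0.0473), so 3 of 4 were lower and 0 higher. Whether the group labels were exchanged was not tested, and an exchange would turn every fall and rise below. Whether these probe sets read the transfected sequence could not be tested either, as the vector is not given. The groups are therefore called by their labels throughout. Epithelial markers fitted the labelled cell type, with EPCAM at 11.13 in CPEB3-labelled arrays and 11.09 in NC-labelled arrays, although the intestinal marker LGALS4 (3.60 and 3.33) lay below the median probe set (3.90). Of the leukocyte markers PTPRC, CD14, LYZ and CD3E only CD3E (4.92 and 4.74) lay above it, and of 6 stromal markers 2 lay below it. Of the 11 epithelial markers KRT20 (0.87) and KRT18 (0.26) were higher in the CPEB3-labelled arrays. None of the leukocyte markers passed the test, and DCN, a fibroblast marker, was the 1 stromal marker that did (4.24 and 3.95, adjusted p = 0.0102). Their part in the kinesin results was not tested.

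In the CPEB3-labelled arrays, 10 of the 12 mitotic kinesins were lower and 0 higher, whereas of the 27 others 0 were lower and 6 higher (limma, Benjamini-Hochberg adjusted p under 0.05 over all 19775 genes). Over all genes, 12.5% were called lower and 10.9% higher, or 23.3% either way. Among the 12932 genes that were not dim, 17.7% were called lower and 14.5% higher. The median difference, always CPEB3-labelled arrays minus NC-labelled arrays on the log2 scale, was -0.38 for the mitotic set, 0.07 for the others and 0.02 for all genes. Every change was below 2-fold, the largest being 1.55-fold (KIF9, at a probe set prone to match other transcripts). The values of the groups lay apart in 10 mitotic kinesins, all lower, and in 10 of the others, all higher, where 19.1% of all genes lay apart downward and 19.9% upward.

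The counts depend on the scaling. The hybridization spike-ins, control RNAs meant to be added in equal amount to each hybridization and not to the cells, were dimmer by 0.18 in the CPEB3-labelled arrays. Centring each array on these spike-ins shifted all genes up by that amount. On that scale 4 mitotic kinesins were called lower (KIF14, KIF11, KIF20A and KIF22) and 1 higher (KIF18A), and 17 of the 27 others were called higher, beside 1038 of all genes lower (5.25%) and 7766 higher (39.3%). Centring adds the same amount to every gene, so it leaves the mitotic median at -0.39 relative to the median of all genes by construction. Of the 12 mitotic differences, 11 were below 0 on both scales. Bulk RNA cannot tell apart fewer cells in mitosis from less of these transcripts per mitotic cell.

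**Figure D1:**
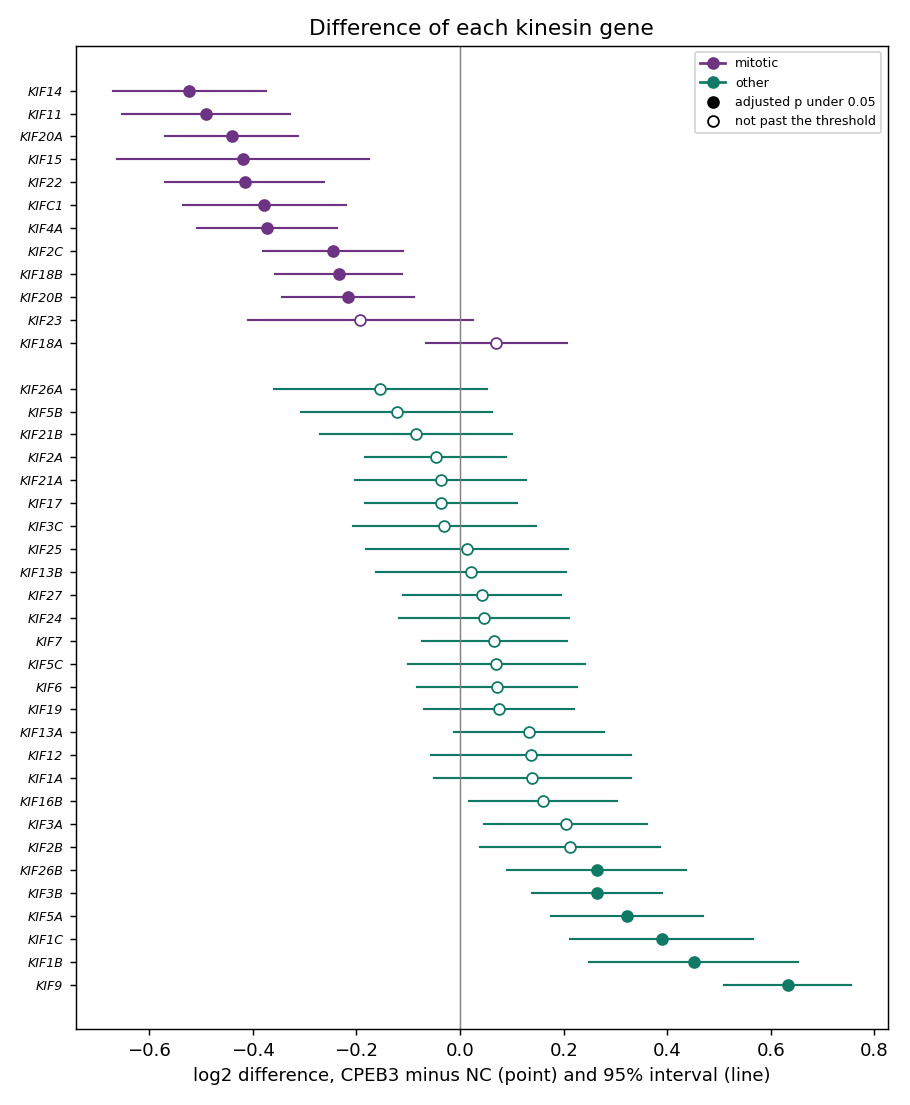
Log2 difference (CPEB3-labelled arrays minus NC-labelled arrays, horizontal axis) of all 39 kinesin genes with its 95% interval from limma, in the deposited scaling. The mitotic genes are in purple and the others in green, with filled points for adjusted p under 0.05. The 10 filled mitotic points all lie left of 0 and the 6 filled green points all lie right of it; with spike-in centring every point moves right by 0.18.

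Among the motors that build the spindle, all 3 fell. KIF11, the tetrameric motor that slides the poles apart and is the target of monastrol, was 6.51, 6.39 and 6.55 in the CPEB3-labelled arrays, against 7.07, 6.96 and 6.88 in the NC-labelled arrays. All 3 CPEB3-labelled arrays lay below all 3 NC-labelled ones, with a gap of 0.34 between the groups, and the difference was -0.49 (SE 0.07), or 1.40-fold lower (limma, Benjamini-Hochberg adjusted p = 0.00127). KIF15, which helps KIF11 to keep the poles apart, was the least even member, at 5.86, 5.55 and 5.44 against 5.96, 6.17 and 5.98. CPEB3 replicate 1 came within 0.10 of the lowest NC array, and the difference of -0.42 had an SE of 0.11 (adjusted p = 0.0213). This call was lost without CPEB3 replicate 2 (0.0665), CPEB3 replicate 3 (0.0673) or NC replicate 2 (0.0695). KIFC1, a minus-end motor that focuses the poles, was 6.46, 6.42 and 6.49 against 6.71, 6.92 and 6.88, a difference of -0.38 (1.30-fold lower, adjusted p = 0.00442) with no overlap.

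Among the motors of the midzone and of cytokinesis, 4 of 5 fell, and KIF14 had the steepest fall of the family. KIF14, which holds citron kinase and PRC1 at the midbody, was 6.90, 6.71 and 6.85 in the CPEB3-labelled arrays, against 7.38, 7.33 and 7.32 in the NC-labelled arrays. The groups were 0.42 apart and the difference was -0.52 (SE 0.07, 1.44-fold lower, adjusted p = 5.29e-04). Its other probe set gave -0.47 (adjusted p = 0.00129 over all probe sets). KIF20A, which brings the chromosomal passenger complex to the midzone, was 6.52, 6.59 and 6.61 against 7.02, 6.98 and 7.04. The groups lay 0.37 apart, with SDs of 0.04 and 0.03, and the difference was -0.44 (1.36-fold lower, adjusted p = 6.20e-04).

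KIF4A, a chromosome-bound motor that limits midzone length together with PRC1, was 6.90, 6.81 and 6.90 in the CPEB3-labelled arrays and 7.20, 7.29 and 7.25 in the NC-labelled arrays, a difference of -0.37 (adjusted p = 0.00209). Its near-identical intronless copy KIF4B is not among the genes measured, and reads of such a copy by the KIF4A probe set were not tested. KIF20B, a motor of late cytokinesis, was 6.59, 6.57 and 6.55 against 6.84, 6.75 and 6.77. That difference of -0.22 (adjusted p = 0.0226) belongs to the brightest of its 3 probe sets, and the other pair, both dim, gave 0.19 and 0.13 without passing the test. With the mean of the 3 probe sets KIF20B differed by 0.03 (adjusted p = 0.66) and with the most variable by 0.19 (adjusted p = 0.146). Its call was also lost without any single array labelled CPEB3 (adjusted p = 0.0526, 0.0705 and 0.069). KIF23, which forms centralspindlin with RACGAP1, was the 1 midzone motor that did not pass, at 6.67, 6.52 and 6.36 against 6.84, 6.73 and 6.55. Its groups overlapped, and the interval of its difference ran from -0.41 to 0.03 around -0.19 (adjusted p = 0.191).

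Among the motors that move chromosomes or trim microtubule ends, 3 of 4 fell. KIF22, a chromosome-arm motor that pushes chromosomes outward, was 5.62, 5.58 and 5.76 in the CPEB3-labelled arrays, against 6.01, 6.10 and 6.10 in the NC-labelled arrays (difference -0.42, SE 0.07, adjusted p = 0.00228). Its groups lay 0.25 apart, and its second probe set gave -0.24 without passing (adjusted p = 0.254). KIF2C, the centromere depolymerase that corrects faulty attachments, was 8.08, 8.09 and 8.19 against 8.33, 8.38 and 8.39. Both of its probe sets fell, by 0.25 and by 0.35 on the log2 scale (adjusted p = 0.0344 and 0.00686 over all probe sets). In the gene-level fit (adjusted p = 0.0164) the KIF2C call was lost without CPEB3 replicate 1 (0.0575), CPEB3 replicate 2 (0.065), NC replicate 2 (0.054) or NC replicate 3 (0.0516). KIF18B, which shortens astral microtubules with KIF2C, was 7.999, 7.999 and 8.018 against 8.228, 8.268 and 8.223. Its groups were the tightest of the mitotic set (SD 0.01 and 0.02), with a difference of -0.23 (adjusted p = 0.0129, or 0.0508 without NC replicate 2).

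KIF18A, which dampens the swinging of chromosomes at metaphase, stood apart from its set. It was 6.60, 6.52 and 6.46 in the CPEB3-labelled arrays and 6.49, 6.44 and 6.44 in the NC-labelled arrays. The groups overlapped, and the difference of 0.07 had an interval from -0.07 to 0.21 (adjusted p = 0.458). The lower bound leaves out a fall as large as that of any called mitotic kinesin, of which KIF20B's was the smallest at -0.22. With spike-in centring KIF18A became 0.25 and passed the test (adjusted p = 0.0351).

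**Figure D2:**
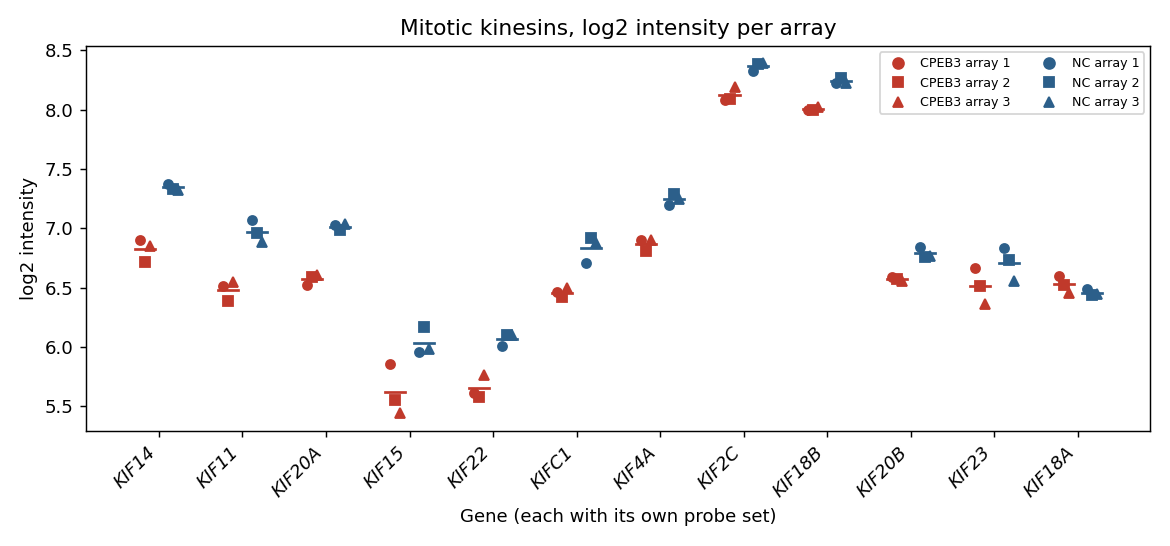
Log2 intensity (vertical axis) of the 12 mitotic kinesins in each array, with CPEB3-labelled arrays in red left of NC-labelled arrays in blue. Symbols mark the array number and bars the group means. The groups lie apart in all genes shown except KIF23 and KIF18A, and each gene has a probe set of its own, so heights are not comparable between genes.

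Since 10 of the 12 mitotic genes were lower together, their promoters were set beside each other. Promoters of mitotic genes are known for a cell-cycle homology region, bound by the MuvB complex and often spelled TTTGAA, with TTTAAA as a variant, downstream of CCAAT boxes bound by NF-Y. RefSeq promoter sequences (GRCh38.p14) were found for 33 of the 39 genes, including all 12 mitotic ones, and the 250 bases before each start were searched on both strands for CCAAT, for TTTGAA and for the variant TTTAAA. No match overlapped one of another motif. The 120 bases before the start are printed for the 4 kinesins with the largest falls, for KIF4A as a lower gene with both motifs, for KIF18A as the mitotic gene that did not fall, and for KIF9 and KIF1C as genes that rose. Each reads 5′ to 3′ on the gene's strand and ends at the base before the start, and capitals mark the motifs, in either direction.
KIF14 (chr1:200620752-200620871, minus strand): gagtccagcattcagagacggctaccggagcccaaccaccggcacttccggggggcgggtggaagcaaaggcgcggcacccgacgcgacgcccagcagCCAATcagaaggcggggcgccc
KIF11 (chr10:92593010-92593129, plus strand): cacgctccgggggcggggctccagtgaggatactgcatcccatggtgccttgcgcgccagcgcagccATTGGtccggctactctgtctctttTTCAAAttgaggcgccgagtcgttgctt
KIF20A (chr5:138178992-138179111, plus strand): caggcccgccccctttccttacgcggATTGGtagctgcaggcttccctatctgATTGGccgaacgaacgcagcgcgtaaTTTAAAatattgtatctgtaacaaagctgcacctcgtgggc
KIF15 (chr3:44761674-44761793, plus strand): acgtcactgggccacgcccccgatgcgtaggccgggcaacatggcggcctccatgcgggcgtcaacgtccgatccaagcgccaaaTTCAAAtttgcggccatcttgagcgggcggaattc
KIF4A (chrX:70289984-70290103, plus strand): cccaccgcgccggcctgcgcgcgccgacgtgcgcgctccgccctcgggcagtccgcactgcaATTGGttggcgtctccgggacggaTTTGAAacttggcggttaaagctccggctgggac
KIF18A (chr11:28108157-28108276, minus strand): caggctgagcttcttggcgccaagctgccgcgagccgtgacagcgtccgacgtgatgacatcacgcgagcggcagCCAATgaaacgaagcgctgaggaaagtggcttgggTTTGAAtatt
KIF9 (chr3:47282800-47282919, minus strand): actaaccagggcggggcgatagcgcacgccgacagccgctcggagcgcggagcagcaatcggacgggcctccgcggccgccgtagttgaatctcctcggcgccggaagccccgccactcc
KIF1C (chr17:4997830-4997949, plus strand): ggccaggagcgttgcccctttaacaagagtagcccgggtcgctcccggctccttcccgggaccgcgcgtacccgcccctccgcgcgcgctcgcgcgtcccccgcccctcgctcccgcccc

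CCAAT stood in 10 of 12 mitotic kinesin genes (83.3%), in 7 of 21 other kinesin genes with a sequence (33.3%) and in 37.0% of the 27305 genes of the table, or 32.0% of its 35116 promoters. TTTGAA, or else its variant TTTAAA, stood in 7 of 12 mitotic genes (58.3%), 2 of 21 others (9.52%) and 25.5% of all genes, or 21.9% of all promoters. In KIF11 the CCAAT box opened 53 bases and the TTTGAA 28 bases before the start, and in KIF4A 58 and 34 bases before it. The letters did not sort the mitotic genes by their change: KIF18A and KIF23, which did not pass, held both motifs, and KIF2C, which fell, held neither. These matches describe letters in a window and show no binding.

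Of the 27 other kinesins, the 6 that rose came from several tasks. KIF9, a motor of motile cilia and sperm tails, had the largest change of the family at the chosen probe sets. It was 8.80, 8.76 and 8.81 in the CPEB3-labelled arrays, against 8.14, 8.16 and 8.17 in the NC-labelled arrays. The groups lay 0.59 apart with SDs of 0.02 and 0.01, and the difference was 0.63 (SE 0.05, 1.55-fold, adjusted p = 5.60e-05). All 4 KIF9 probe sets rose, by 0.63, 0.62, 0.48 and 0.36, the last at the 1 probe set that is not prone to match other transcripts (adjusted p = 0.0298 over all probe sets). That probe set was far dimmer, with means of 4.52 in the CPEB3-labelled arrays and 4.16 in the NC-labelled arrays. With only probe sets of that kind, KIF9 (0.36) changed less than KIF14 (-0.52), KIF1B (0.45) and KIF1C (0.39), among others. The KIF9 locus also holds the antisense gene KIF9-AS1, and reads shared with it were not tested.

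KIF1B and KIF1C, related carriers of vesicles and organelles, both rose at the probe sets that stand for them. KIF1C was 7.46, 7.38 and 7.64 in the CPEB3-labelled arrays and 7.02, 7.17 and 7.13 in the NC-labelled arrays, with no overlap and a difference of 0.39 (SE 0.08, adjusted p = 0.00667). A second KIF1C probe set rose by 0.29 and the remaining one, dim, gave 0.02. KIF1B, which moves mitochondria and synaptic vesicle precursors through different splice forms, was 6.76, 6.81 and 6.95 against 6.21, 6.48 and 6.48 at its brightest probe set (difference 0.45, adjusted p = 0.00613). It was the 1 kinesin whose probe sets were called in both directions.

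At the next KIF1B probe sets in brightness the means were 6.39 in the CPEB3-labelled arrays and 6.66 in the NC-labelled arrays, and 4.76 and 5.10. These differences of -0.26 and -0.34 also passed the test (adjusted p = 0.0298 and 0.0178 over all probe sets), and the mean of all 4 probe sets was -0.0013. The rise of KIF1B was measured at 1 of its 4 probe sets. That probe set was the brightest over the 6 arrays, but in the NC-labelled arrays alone the next one was brighter (means of 6.66 against 6.39). It was thus chosen through its level in the CPEB3-labelled arrays. Which transcripts each probe set reads was not analysed here.

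KIF3B forms the cilium-building heterotrimeric motor with KIF3A and the adaptor KIFAP3. It was 8.13, 8.11 and 8.06 in the CPEB3-labelled arrays, against 7.83, 7.82 and 7.86 in the NC-labelled arrays (difference 0.26, SE 0.06, adjusted p = 0.00807). The second KIF3B probe set (means of 7.01 and 6.80) differed by 0.20 without passing (adjusted p = 0.0755 over all probe sets). KIF3A, the partner of KIF3B, was 6.48, 6.48 and 6.63 against 6.41, 6.27 and 6.29, apart but short of the threshold (0.20, adjusted p = 0.0643). KIF3A passed with the intensity trend (0.0274), with array weights (0.0396), without dim genes (0.0288), with quantile normalization once more (0.0354), with spike-in centring (0.00331) and without NC replicate 1 (0.0433). Under the other 12 of 18 alternatives it did not pass, with a limma adjusted p of up to 0.191. KIFAP3 differed by -0.05 (6.29 and 6.34, adjusted p = 0.624). KIF3C, an alternative to KIF3B as the partner of KIF3A in neurons, differed by -0.03 (interval -0.21 to 0.15).

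KIF5A, the neuronal form of the conventional heavy chain, was 4.27, 4.41 and 4.31 in the CPEB3-labelled arrays and 3.93, 4.06 and 4.03 in the NC-labelled arrays (difference 0.32, adjusted p = 0.0067). The rise was seen at 1 of its 3 probe sets, and their mean differed by 0.15 (adjusted p = 0.0581). KIF5B, the form made in all tissues, was 8.75, 8.75 and 8.55 against 8.93, 8.77 and 8.72, with overlapping groups and an interval from -0.31 to 0.06. KIF26B, an atypical kinesin known from kidney development in mice, was 4.82, 4.60 and 4.84 against 4.55, 4.46 and 4.46 (difference 0.26, adjusted p = 0.0348). The groups were 0.05 apart, no KIF26B probe set passed when each probe set was tested on its own (0.0575 for the brightest), and the call was lost without CPEB3 replicate 1 (0.113), CPEB3 replicate 3 (0.111), NC replicate 2 (0.0959) or NC replicate 3 (0.0904).

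**Figure D3:**
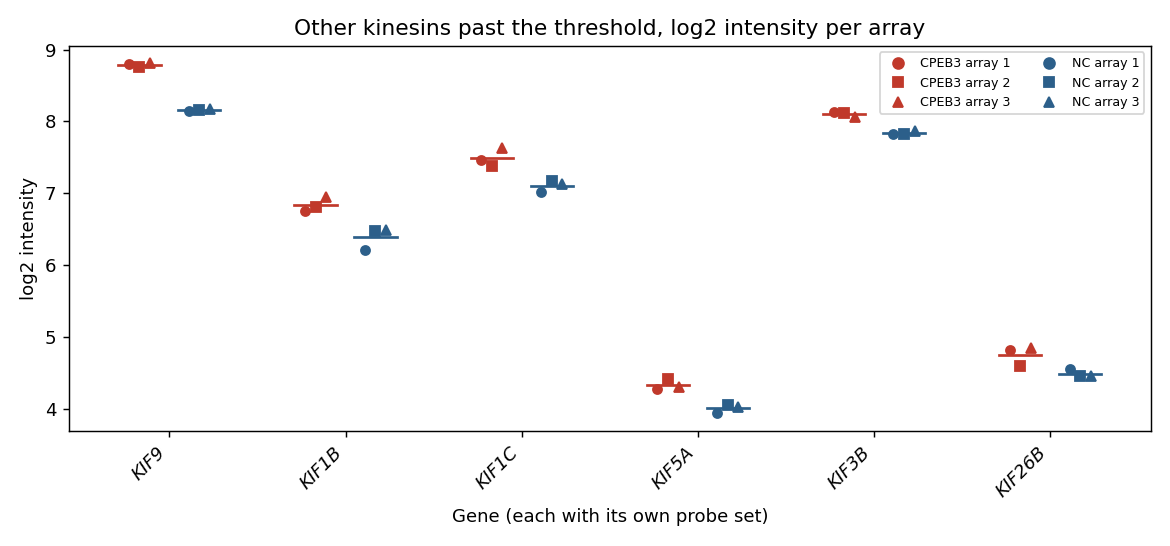
Log2 intensity (vertical axis) in each array of the 6 kinesins called higher, with CPEB3-labelled arrays in red left of NC-labelled arrays in blue. Symbols mark the array number and bars the group means. The red points lie above the blue in all 6 genes, by the widest gap in KIF9 (0.59) and the narrowest in KIF26B (0.05).

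**Figure D4:**
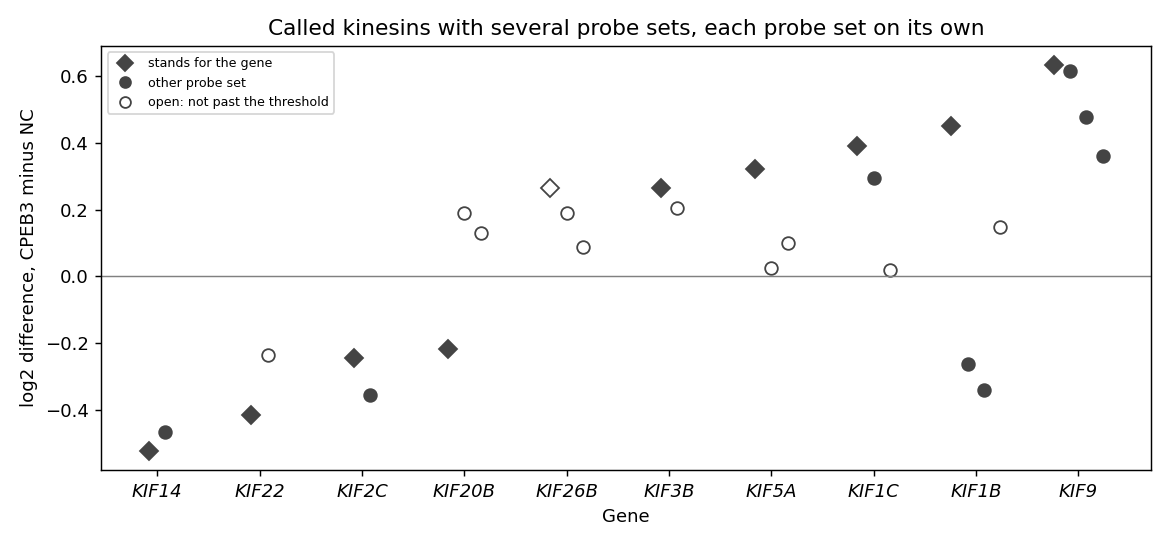
Log2 difference (CPEB3-labelled arrays minus NC-labelled arrays, vertical axis) of each probe set of the 10 called kinesins that have several, tested on its own over all probe sets. Diamonds mark the probe set that stands for the gene and open symbols those not past the threshold. The KIF9 probe sets all lie above 0 and the KIF14 and KIF2C ones below it, while those of KIF1B and KIF20B lie on both sides.

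Over all 81 probe sets of the 39 genes, 14 were lower and 9 higher, where 7.86% of all probe sets were lower and 6.59% higher. The other 21 non-mitotic kinesins did not pass. Their differences ran from -0.15 (KIF26A) to 0.21 (KIF2B), and all 21 intervals lay within 1.5-fold either way, as did those of KIF23 and KIF18A. So did the intervals of 15067 of all 15159 genes not called. Of the called kinesins, only KIF9 changed by more than 1.5-fold, at a probe set prone to match other transcripts. The 1.5-fold bound is thus wide beside most called changes. KIF2A, a microtubule depolymerase related to KIF2C, was 6.86, 6.93 and 6.90 in the CPEB3-labelled arrays against 7.01, 6.88 and 6.94 in the NC-labelled arrays, an interval from -0.18 to 0.09. KIF2B, a relative with a role in mitosis that is set among the others here, was dim, at 2.41, 2.33 and 2.44 against 2.33, 2.16 and 2.06 (adjusted p = 0.0782). The endosome motors KIF13A (0.13) and KIF16B (0.16) had groups that lay apart without passing (adjusted p = 0.176 and 0.102). The other KIF16B probe set went the opposite way, by -0.25, without passing (limma adjusted p = 0.172 over all probe sets).

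Of the kinesins that act at cilia, KIF9 and KIF3B rose, as given above, and KIF7, KIF19, KIF24 and KIF27, listed here as cilium and signalling genes, did not pass. Nor did KIF3A, as given above, or KIF17 (-0.04, limma adjusted p = 0.73), both listed here under cargo transport. KIF7, which acts at the cilium tip in Hedgehog signalling, was 4.17, 4.04 and 4.03 in the CPEB3-labelled arrays against 3.98, 4.03 and 4.03 in the NC-labelled arrays (interval -0.07 to 0.21). KIF19 differed by 0.07, KIF24 by 0.05 and KIF27 by 0.04. The last pair lay at 1.32 to 1.63 in all arrays, where a change could be missed. In all 4 kinesins were dim, KIF2B, KIF6, KIF24 and KIF27, and 0 of them were called, so 35 of the 39 lay above the median probe set.

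Of 25 measured genes that work with the mitotic motors at the spindle and midzone, 14 were lower (56.0%, against 12.5% of all genes), 0 were higher and 11 did not pass, with a median of -0.27. With spike-in centring 7 were lower, where 5.25% of all genes were, and 1 was higher. CENPE, a centromere motor of the kinesin family without a KIF symbol, was 6.35 ± 0.19 in the CPEB3-labelled arrays and 6.79 ± 0.02 in the NC-labelled arrays (SD, n = 3 each), 1.35-fold lower (limma, Benjamini-Hochberg adjusted p = 0.0075). AURKB, the kinase that controls KIF2C and KIF20A, differed by -0.86 (adjusted p = 2.36e-05). The proliferation marker MKI67 differed by -0.79, ANLN, a scaffold of the cleavage furrow, by -0.57, and HMMR, a spindle assembly factor, by -0.52.

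Direct partners of single motors did not all pass. PRC1, the midzone bundler that binds KIF4A and KIF14, fell by 0.36 on the log2 scale (8.80 in the CPEB3-labelled arrays and 9.16 in the NC-labelled arrays, adjusted p = 0.00266). TPX2, which binds KIF11 and KIF15, fell by 0.39 (adjusted p = 0.00184). RACGAP1, the partner of KIF23, differed by -0.13 (8.94 and 9.07, adjusted p = 0.15), and AURKA by -0.11 (8.59 and 8.70, adjusted p = 0.247). PRC1 and TPX2 were chosen for the text after their values were seen, as were RACGAP1 and AURKA.

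Of 26 transport adaptors, light chains and related motors, 5 were higher (19.2%, against 10.9% of all genes: KLC2, MAP7D3, TRAK2, KIFBP and MAP7) and 2 lower (7.69%, against 12.5%: MADD and MAP7D1), with a median of 0.00. Together 7 of the 26 were called, a share near the 23.3% of all genes. KLC2, a light chain that links conventional kinesin to cargo, was 7.78 ± 0.07 in the CPEB3-labelled arrays and 7.40 ± 0.06 in the NC-labelled arrays (SD, n = 3 each; adjusted p = 0.00306). TRAK2, the adaptor that ties mitochondria to kinesin, differed by 0.33 and KIFBP, an inhibitor that binds motor domains including those of KIF15 and KIF18A, by 0.30 (adjusted p = 0.01 and 0.0199). With spike-in centring 12 were higher and 0 lower, where 39.3% of all genes were higher and 5.25% lower. On the deposited scale, leaving out CPEB3 replicate 2, CPEB3 replicate 3, NC replicate 2 or NC replicate 3 alone left 0 lower, while without CPEB3 replicate 1 it was 1, and 3 were higher without NC replicate 2. KIFC2 and KIFC3, the relatives of KIFC1 outside the mitotic set, differed by -0.04 and -0.26 (adjusted p = 0.728 and 0.0714).

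Of 26 dynein and dynactin genes, which form and steer the motor that walks the other way, 5 were lower (19.2%, against 12.5% of all genes) and 6 higher (23.1%, against 10.9%), with a median of 0.07. Only 2 of the 26 were dim, and among all genes that were not dim 17.7% were lower and 14.5% higher. NDE1, a dynein regulator needed for mitosis, had the largest difference at -0.72 (6.75 ± 0.05 in the CPEB3-labelled arrays and 7.47 ± 0.10 in the NC-labelled arrays, SD, n = 3 each; adjusted p = 1.10e-04). HOOK3 fell by 0.30, DYNC1LI2 by 0.27 and DYNC1H1, the motor chain itself, by 0.22, while DCTN5 (0.47), HOOK1 (0.38), DYNLT3 (0.33) and BICD2 (0.26) rose. With spike-in centring 1 was lower and 13 higher, where 5.25% and 39.3% of all genes were. Leaving out 1 array moved the lower count to 3 (any CPEB3 array, or NC replicate 3) or 2 (NC replicate 2), and the higher count to 3 (CPEB3 replicate 1 or NC replicate 2).

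Tubulins form the track itself. Of 17 measured, 1 was lower (5.88%, against 12.5% of all genes) and 0 higher (against 10.9%), with a median of -0.03. With spike-in centring 5 were higher, where 39.3% of all genes were. The 1 that fell was TUBE1, the centriolar epsilon-tubulin (5.38 ± 0.17 in the CPEB3-labelled arrays and 6.33 ± 0.16 in the NC-labelled arrays, SD, n = 3 each; difference -0.95, adjusted p = 2.39e-04). The alpha- and beta-tubulins that make up most microtubules, such as TUBA1B (-0.13) and TUBB (0.06), did not pass.

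**Figure D5:**
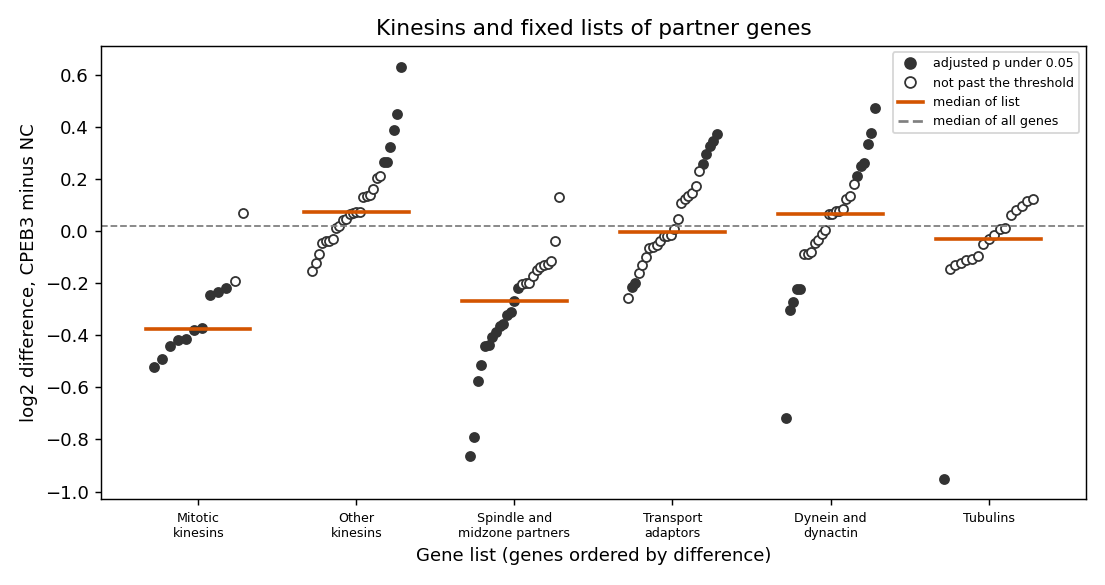
Log2 difference (CPEB3-labelled arrays minus NC-labelled arrays, vertical axis) of each gene in the mitotic kinesins, the other kinesins and 4 lists of partner genes, in the deposited scaling. Filled points have adjusted p under 0.05, orange bars are list medians and the dashed line is the median of all genes (0.02). The mitotic kinesins (median -0.38) and their spindle and midzone partners (-0.27) lie mostly below the dashed line, and with spike-in centring all points and the line move up by 0.18.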

How the data were processed

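Per the submitters' processing notes, the authors used RMA (its version is not given in the sources used here), and they deposited intensity values, 1 for each probe set of an array, which are linear and not log values. RMA brings arrays to nearly equal distributions, which hides any difference in RNA content per cell. Log2 was taken of these intensities. Arrays have no depth, and their number (3 per group) limits the precision.

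Of 54675 probe sets, 62 controls, 1801 with several symbols and 11721 unnamed here were left out. Each gene was represented by its probe set with the highest mean log2 over the 6 arrays. A gene is called dim where that mean lies below the median over probe sets. Groups and replicate numbers came from the sample titles, and differences were tested in R 4.3.3 using limma 3.58.1 (group as the only term, 2-sided, Benjamini-Hochberg over all genes, threshold 0.05, 95% intervals). Probe sets were also fitted each on its own. The steps were tested on simulated data. The members, the partner lists and the tests were chosen with earlier results of these data known. Every kinesin could be named, with CPEB3, CENPE, MKI67 and up to 4 called genes per direction of each partner list. RACGAP1, AURKA, PRC1, TPX2, KIFAP3, KIFC2, KIFC3, TUBA1B, TUBB and the marker genes were picked with their values in view.

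The replicate numbers were checked for pairing. Deviations from the group means of same-numbered arrays correlated, across genes, with r = 2.70e-04, -0.017 and 0.118, so the numbers were not taken to pair the samples. Alternatives were other probe set choices, no dim genes, other scalings (array medians, spike-ins, quantiles), a trend, robust variances, array weights, a replicate block, a threshold of 0.01 and leaving out each array. Figures were drawn with matplotlib 3.10.9.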

Additional observations from a re-analysis of the deposited data

How the results depend on the processing

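KIF14, KIF11, KIF20A and KIF22 (lower) and KIF9, KIF1C and KIF3B (higher) kept their direction and call under every alternative that measured them, and the other 9 called kinesins lost the call under at least 1. No alternative called another kinesin lower. With the replicate block the counts were 10 kinesins lower and 6 higher, the same genes, beside 11.7% of all genes lower and 9.84% higher. The counts over all other lists stayed within 1.5 times except that 0 transport adaptors were lower.

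With spike-in centring, 4 kinesins were lower (4 mitotic) and 18 higher (1 mitotic, 17 others), with medians of 0.20 over all kinesins, -0.20 over the mitotic and 0.25 over the others. So centred, 1038 of all genes were lower and 7766 higher, and the lists had 7 spindle partners lower and 1 higher, 0 adaptors lower and 12 higher, 1 dynein gene lower and 13 higher, and 5 tubulins higher. With the mean of all probe sets, 3 kinesins were higher, all 3 among the 27 non-mitotic, where 9.98% of all genes were higher and 10.7% lower. The kinesin median was then -0.0013 and that of the others 0.046, KIF20B was 0.035 and KIF1B -0.0013. In that setting 1 adaptor was lower and 3 higher, and 2 dynein genes were lower. With the most variable probe set, KIF20B was 0.19 and 0 adaptors were lower, beside 12.7% of all genes. Leaving out the probe sets marked as prone to match further transcripts left 34 kinesins, 8 of them mitotic. The medians were 0.052 over all kinesins and 0.094 over the others. In that setting 9 spindle partners, 0 adaptors and 2 tubulins were lower and 3 dynein genes higher. Of the 17098 genes left, 10.0% were lower and 9.03% higher, and the partner lists were not counted anew. Without dim genes the kinesin median was -0.031. Quantile normalization once more gave medians of -0.33 (mitotic) and 0.094 (others) and 0 adaptors lower, beside 11.4% of all genes. The intensity trend gave 3 tubulins lower, beside 15.1% of all genes. At a threshold of 0.01, 6 kinesins were lower, all 6 mitotic, with 1520 of all genes lower (7.69%) and 1083 higher (5.48%). There were then 0 adaptors lower and 2 higher, and 1 dynein gene lower and 3 higher.

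Leaving out 1 array at a time gave 7 to 10 kinesins lower (7 to 10 mitotic, 0 others) and 5 to 8 higher. Of all genes, 9.41% to 12.2% were then lower and 7.65% to 9.82% higher. The medians were 0.0070 to 0.049 (all kinesins), -0.42 to -0.34 (mitotic) and 0.071 to 0.11 (others). There were 0 to 3 adaptors lower and 3 to 5 higher, and 2 to 4 dynein genes lower and 3 to 5 higher. The cause of these changes was not tested, beyond the smaller number of arrays, genes or probe sets that some alternatives use. Dim probe sets limit what can be seen of KIF2B, KIF6, KIF24 and KIF27.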
